A study of Rattus norvegicus with 7 samples.

Results

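Syndecans and glypicans are the cell-surface families of heparan sulfate proteoglycans. Of the 20660 genes in the deposited table, 8 were examined: the syndecans Sdc1, Sdc2, Sdc3 and Sdc4 and the glypicans Gpc1, Gpc3, Gpc4 and Gpc6. They were found by gene symbol, and each symbol stood on 1 row. The RNA came from synovium, the lining tissue of joints, of 7 male rats that were 3 months old. The MIA group was 4 rats, numbered 1 to 4, whose right knee received MIA at 10 mg per kg in 0.1 mL, and the control group was 3 rats without treatment, numbered 2 to 4. What the letters MIA mean is not given in the labels, and in arthritis models they commonly denote monosodium iodoacetate, which blocks glycolysis. Tissue was taken 4 weeks after injection, and each rat gave 1 library. The protocol also lists sodium pentobarbital by the intraperitoneal route, and the labels do not say whether the controls had it. No vehicle-injected group is labelled, so effects of the injection and of MIA cannot be told apart.

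Both families are core proteins that carry heparan sulfate, a long sugar chain whose sulfate groups bind growth factors, chemokines, morphogens and matrix proteins at the cell surface. Syndecans cross the membrane and have a short cytoplasmic tail that contacts adaptor proteins and the cytoskeleton, whereas glypicans are held in the outer leaflet by a glycosylphosphatidylinositol anchor. Proteases can shed the chain-bearing part of a syndecan, and lipases can release a glypican, which turns a co-receptor into a soluble binding protein. In joint tissue these proteoglycans are studied mainly as co-receptors of fibroblast growth factors and as parts of cell adhesion.

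Promoters are shown for 3 syndecans that set the called paralog beside those that were not called: Sdc1 was higher in MIA libraries, and Sdc3 and Sdc4 did not pass the test. Each sequence runs from 250 bases before to 50 bases after the annotated start in RefSeq on GRCr8, 5′ to 3′ on the strand of the gene. Capitals mark TATAA on that strand and GGGCGG, the core of a GC box, on either strand (CCGCCC where it lies on the other). The Sdc1 promoter lies at chr6:37281791-37282090 on the plus strand, that of Sdc3 at chr5:148249542-148249841 on the plus strand, and that of Sdc4 at chr3:173592874-173593173 on the minus strand.
Sdc1: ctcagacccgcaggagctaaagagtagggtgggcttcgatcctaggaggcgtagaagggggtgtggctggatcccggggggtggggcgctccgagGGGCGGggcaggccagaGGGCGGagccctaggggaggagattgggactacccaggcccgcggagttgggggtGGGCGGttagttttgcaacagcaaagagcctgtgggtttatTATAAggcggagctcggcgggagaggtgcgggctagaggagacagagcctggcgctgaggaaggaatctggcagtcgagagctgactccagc
Sdc3: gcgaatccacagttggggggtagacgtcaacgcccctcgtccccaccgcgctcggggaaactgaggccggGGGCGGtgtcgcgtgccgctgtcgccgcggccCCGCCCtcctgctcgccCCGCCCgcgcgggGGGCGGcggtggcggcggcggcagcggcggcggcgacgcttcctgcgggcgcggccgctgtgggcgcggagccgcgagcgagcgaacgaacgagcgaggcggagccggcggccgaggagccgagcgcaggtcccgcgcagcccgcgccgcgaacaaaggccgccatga
Sdc4: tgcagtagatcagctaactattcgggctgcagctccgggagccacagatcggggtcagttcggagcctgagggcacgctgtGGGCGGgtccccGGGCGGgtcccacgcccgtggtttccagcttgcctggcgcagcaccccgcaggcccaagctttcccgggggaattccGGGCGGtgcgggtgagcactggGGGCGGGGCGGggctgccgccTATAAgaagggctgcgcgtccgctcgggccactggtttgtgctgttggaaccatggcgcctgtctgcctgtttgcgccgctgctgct
TATAA began 42 bases before the start in Sdc1 and 37 bases before it in Sdc4, and these letters were not in the Sdc3 window. Over 33469 rat promoters of the same length, 18.4% held TATAA on the gene's strand and 33.1% held GGGCGG on either strand. GGGCGG occurred 3 times in Sdc1, 4 times in Sdc3 and 5 times in Sdc4, where 2 of the matches overlap. The GC content was 64.7% in Sdc1, 79.3% in Sdc3 and 68.7% in Sdc4, against a median of 51.7% over all promoters. Promoters of Gpc3 and Gpc4, which both lie on chromosome X, were also found (GC content 71.0% and 71.3%), with 4 GGGCGG matches each and no TATAA. In all, 5 of 8 members had an entry. No member but Sdc1 among these 5 held CCAAT (37.5% of all promoters, both strands searched), and none of the 5 held TGANTCA, an AP-1 motif (7.33%). The 2 syndecans with TATAA include one that was called and one that was not.

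The libraries held 13870822 to 16261089 counts. Of the 14054 genes with enough counts to be tested, 5751 (40.9%) differed between MIA and control (edgeR quasi-likelihood test, Benjamini-Hochberg adjusted p under 0.05), 21.3% of the tested genes being higher and 19.6% lower in MIA. Levels are given as CPM, the count scaled to a common TMM-adjusted library size, and levels of different genes are compared only as FPKM, which divides by gene length. Skeletal muscle genes took 2.74% ± 2.12 of the counts in MIA libraries (SD, n = 4) and 15.5% ± 1.14 in control libraries (SD, n = 3). Their summed level was 26017, 419, 42600 and 25219 CPM in MIA 1 to 4 and 170872 to 208691 CPM in control libraries, without overlap. Fits with the muscle level as a covariate are given below. Since muscle level and group differ together, these fits cannot separate muscle share from MIA. A further setting left muscle, blood and mitochondrial genes out of the scaling only. As a check of the labelled tissue, the lining fibroblast gene Prg4, which encodes lubricin, averaged 630 ± 747 FPKM in MIA libraries (SD, n = 4) and 623 ± 278 FPKM in control libraries (SD, n = 3). The fibroblast gene Thy1 averaged 263 ± 55.1 FPKM in MIA libraries and 18.1 ± 8.71 FPKM in control libraries, and Col1a1, a chain of type I collagen, averaged 5779 ± 1965 FPKM in MIA libraries and 194 ± 105 FPKM in control libraries. In bulk tissue, fewer cells of a type and less RNA per cell cannot be told apart. Nothing beyond the rat numbers describes the replicates, so p-values measure the spread between these 7 rats.

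Among the 8 members, Sdc1 and Gpc6 were higher in MIA libraries and the other 6 were not called in either direction. The 2 called members are 25.0% of the 8, against 21.3% of all tested genes called higher, so the share is near the background. All 8 passed the filter on low counts, and only these 2 had an unadjusted p under 0.05. The median log2 change of the members was 0.51, against 0.072 over all tested genes. In 3 of 8 members (37.5%), Sdc1, Sdc3 and Gpc6, every MIA library lay above every control library, which was also so for 24.8% of all tested genes. Over all tested genes the groups did not overlap in 49.2%, with MIA below in 24.4%. All 4 syndecans had a positive log2 change, and of the glypicans only Gpc6 did, but the signs of Gpc1 and Gpc4 turn with the scaling, as given below.

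**Figure D1:**
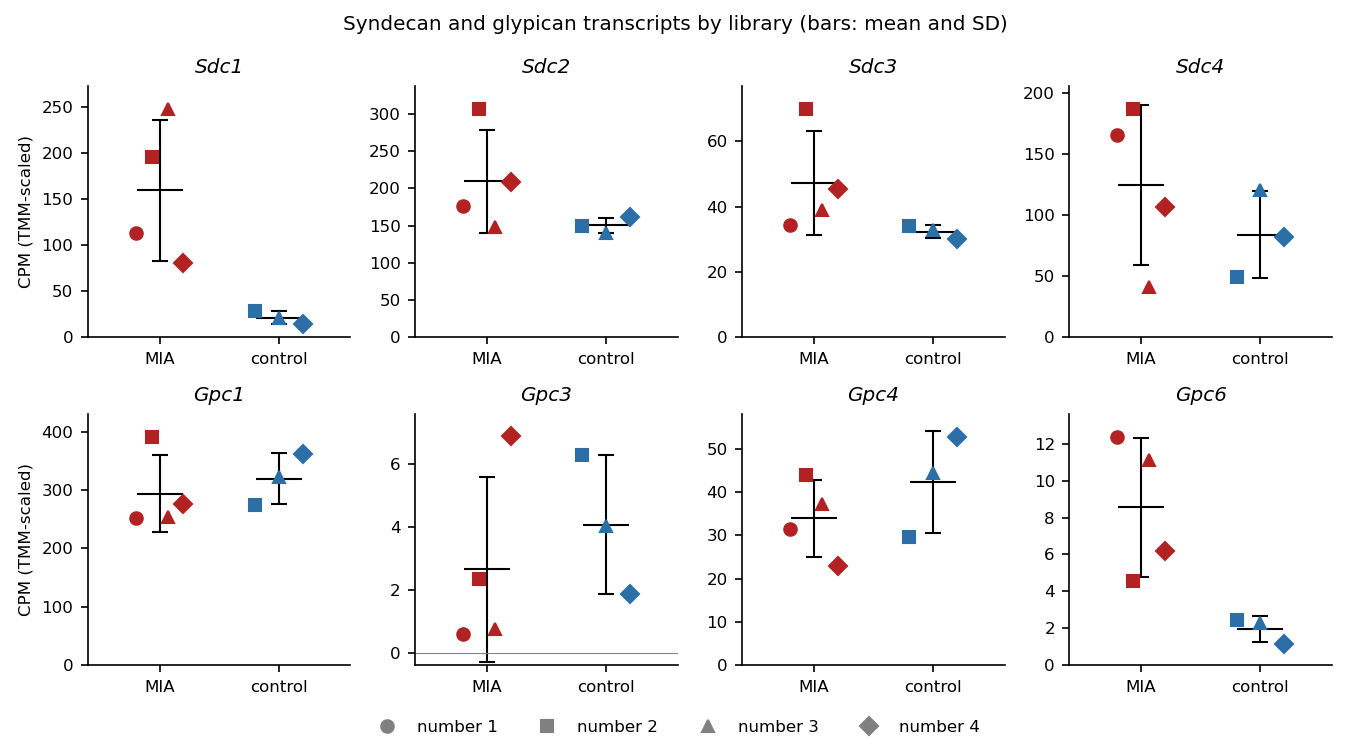
CPM of each syndecan (top row) and glypican (bottom row) in the 4 MIA and 3 control libraries, with the mean and SD of each group as bars; the vertical scale differs between panels. The Sdc1 points of MIA libraries lie at 80.4 CPM or above and those of controls at 28.5 CPM or below, and the Gpc6 points also separate, whereas those of Sdc2, Sdc4, Gpc1, Gpc3 and Gpc4 overlap.

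Sdc1, known as CD138 and carried by epithelial cells, plasma cells and other cells, had the largest change of the 8 members. It (ENSRNOG00000059947) stood at 113, 196, 248 and 80.4 CPM in MIA 1 to 4, against 28.5, 21.3 and 14.2 CPM in control 2 to 4. MIA 3 was the highest and MIA 4 the lowest of the MIA libraries, and the lowest MIA value was still far above the highest control value. The means were 159 ± 76.3 CPM in MIA (SD, n = 4) and 21.3 ± 7.15 CPM in control (SD, n = 3), a 7.47-fold difference. The log2 change was 2.90 ± 0.45 (SE), with an adjusted p of 0.00251 in the edgeR test. It stayed called in each alternative setting: without MIA 3 the log2 change was 2.58, and in the fit with the muscle covariate it was 2.68 (edgeR adjusted p = 0.0255).

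Markers of cell types known to carry Sdc1 were read beside it. Of 8 plasma cell genes, 7 were tested and 3 were higher, where 21.3% of all tested genes were called higher. The summed level of the 8 was 128 to 167 CPM in MIA libraries and 69.2 to 96.0 CPM in control libraries. In every library but MIA 3 most of that sum was Xbp1, which many cells express and which was not called. Without it, a step chosen after the values were seen, the other 7 genes summed to 12.5, 21.4, 86.4 and 18.3 CPM in MIA 1 to 4, against 7.50, 11.1 and 7.21 CPM in control 2 to 4. MIA 3 stood far above the other libraries. Of the called genes, Jchain, the joining chain of secreted antibodies, stood at 2.16, 2.62, 43.4 and 4.49 CPM in MIA 1 to 4, against 0.911, 0.616 and 1.15 CPM in control 2 to 4. MIA 3, the library with the most Sdc1, was also the one with the most Jchain, but MIA 2, second in Sdc1, was at 2.62 CPM. Tnfrsf17, the plasma cell receptor BCMA, was listed at 0 in every control library and was not tested. Mzb1, of the same list, stood at 0.299, 0.511, 10.7 and 0.422 CPM in MIA 1 to 4, against 0.631, 3.87 and 1.97 CPM in control 2 to 4. It was not called (edgeR adjusted p = 0.784). The summed level of 7 B cell genes was 6.53 to 12.0 CPM in MIA and 2.82 to 5.47 CPM in control libraries. The 8 epithelial genes summed to 3.17 to 6.01 CPM in MIA and 2.62 to 6.87 CPM in control libraries, which overlap. Krt5 and Krt14 were listed at 0 in all controls and were not tested. The 2 tested epithelial genes, Cdh1 and Krt8, had log2 changes of 1.53 ± 0.73 and −0.38 ± 0.57 (SE) and were not called. Macrophage genes (9 genes) summed to 1869 to 5581 CPM in MIA and 861 to 1188 CPM in control libraries, and sublining fibroblast genes (9 genes) to 7049 to 9607 CPM in MIA and 2322 to 3152 CPM in control libraries. The part of these cell types in the level of Sdc1 was not tested.

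Sdc2, a syndecan of fibroblasts and other mesenchymal cells, was the most abundant syndecan per length in the group means. It (ENSRNOG00000004936) stood at 176, 307, 148 and 208 CPM in MIA 1 to 4, against 149, 140.0 and 161 CPM in control 2 to 4. MIA 2 was the highest of all libraries, and MIA 3 lay within the control range. A log2 change of 0.48 ± 0.27 (SE) did not pass the test (edgeR adjusted p = 0.18). The controls were close to each other, at 150.1 ± 10.5 CPM (SD, n = 3), and the MIA libraries varied more, at 209.8 ± 69.3 CPM (SD, n = 4).

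Sdc3, known as N-syndecan from its high level in the nervous system, stood at 34.3, 70.0, 38.8 and 45.5 CPM in MIA 1 to 4, against 34.0, 32.8 and 30.1 CPM in control 2 to 4 (ENSRNOG00000011927). The groups did not overlap, but MIA 1 and control 2 nearly met. The means were 47.1 ± 15.9 CPM in MIA (SD, n = 4) and 32.3 ± 1.97 CPM in control (SD, n = 3). The log2 change was 0.55 ± 0.25 (SE), which missed the threshold (edgeR adjusted p = 0.113). MIA 2 was the highest library for Sdc3 as it was for Sdc2.

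Sdc4, the syndecan of focal adhesions, stood at 166, 187, 41.1 and 106 CPM in MIA 1 to 4, against 49.1, 120.4 and 82.4 CPM in control 2 to 4 (ENSRNOG00000014297). MIA 3, which held the most Sdc1, held the least Sdc4 of all 7 libraries. Within MIA the highest value was 4.56 times the lowest, and within control 2.45 times. The means were 125 ± 65.6 CPM in MIA (SD, n = 4) and 84.0 ± 35.7 CPM in control (SD, n = 3), and the difference was within the spread between libraries of a group (log2 change 0.58 ± 0.50 SE, edgeR adjusted p = 0.387).

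The calls of Sdc2 and Sdc3 depended on the scaling. With plain library totals in place of TMM factors, the log2 change of Sdc2 was 0.92 (edgeR adjusted p = 0.0222) and that of Sdc3 was 0.98 (0.0159), and 4 members were higher in place of 2. Under library totals the median log2 change of all tested genes was itself 0.51, and 47.9% of the genes were called, 37.4% higher and 10.5% lower. Relative to the median of all genes the change was 0.41 for Sdc2 under both scalings, and 0.47 for Sdc3 under both. With the muscle level as a covariate, the log2 change was −0.14 for Sdc2, −0.060 for Sdc3 and −0.32 for Sdc4, none of them called. MIA 2, the highest library for Sdc2, Sdc3 and Sdc4, had the lowest muscle level, 419 CPM, against 25219 CPM or more in the other MIA libraries. Without MIA 2 and with no covariate, their log2 changes were 0.25, 0.30 and 0.32, none called. How far the change of sign rests on MIA 2 was not tested.

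Gpc1, a co-receptor of fibroblast growth factors, was the most abundant of the 8 members per length in 6 of 7 libraries, the exception being MIA 3, where Sdc1 was. It (ENSRNOG00000049437) stood at 253, 392, 254 and 277 CPM in MIA 1 to 4, against 274, 323 and 362 CPM in control 2 to 4. The groups overlapped throughout, with MIA 2 again the highest. The log2 change was −0.12 ± 0.24 (SE; edgeR adjusted p = 0.706) and 0.32 with library totals. In RefSeq on GRCr8, another build than that of the counts, the gene overlaps the entry of Ankmy1. Since neither the strand setting nor the handling of overlaps is known, the Gpc1 count is uncertain by an amount that was not measured. Ankmy1 itself stood at 0.479, 2.11, 0.650 and 0.528 CPM in MIA 1 to 4, against 0.421, 0.440 and 0.0819 CPM in control 2 to 4.

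Gpc3, a glypican of fetal tissues that restrains hedgehog signalling in mice and humans, was the least certain member, with 10, 37, 14 and 131 counts in MIA 1 to 4 and 90, 46 and 23 counts in control 2 to 4. Its levels (ENSRNOG00000060179) were 0.599, 2.36, 0.758 and 6.91 CPM in MIA 1 to 4, against 6.31, 4.05 and 1.88 CPM in control 2 to 4. MIA 4 was the highest of all libraries, while MIA 1 and MIA 3 were the lowest. The log2 change was −0.62 ± 0.83 (SE; edgeR adjusted p = 0.578). With single libraries left out it ran from −1.72 ± 0.68 (SE; edgeR adjusted p = 0.0817) without MIA 4 to −0.16 without control 2, with −0.29 without MIA 1, −0.32 without MIA 3 and −0.96 without control 4. The spread between libraries was thus larger than the difference between the groups.

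Gpc4, which in rodents is released by astrocytes and acts on synapses, stood at 31.4, 44.1, 37.4 and 23.0 CPM in MIA 1 to 4, against 29.6, 44.5 and 52.9 CPM in control 2 to 4 (ENSRNOG00000002413). The lowest value was in MIA 4 and the highest in control 4, and the groups overlapped. Its log2 change of −0.32 ± 0.27 (SE; edgeR adjusted p = 0.370) became 0.14 with library totals.

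Gpc6, a glypican whose loss in humans shortens the limbs in omodysplasia, was higher in MIA. It (ENSRNOG00000046660) stood at 12.4, 4.53, 11.1 and 6.18 CPM in MIA 1 to 4, against 2.45, 2.29 and 1.15 CPM in control 2 to 4. MIA 1 and MIA 3 were the highest, and MIA 2, the library highest in Sdc2, Sdc3, Sdc4 and Gpc1, was the lowest of the MIA group. The means were 8.55 ± 3.79 CPM in MIA (SD, n = 4) and 1.96 ± 0.712 CPM in control (SD, n = 3), a 4.34-fold difference. On the log2 scale the change was 2.12 ± 0.47 (SE), with an edgeR adjusted p of 0.00892. The counts behind it were 71 to 207 in MIA and 14 to 35 in control libraries. It remained called in each alternative setting, with log2 changes of 1.84 to 2.33 when single libraries were left out and 2.76 under the muscle covariate.

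**Figure D2:**
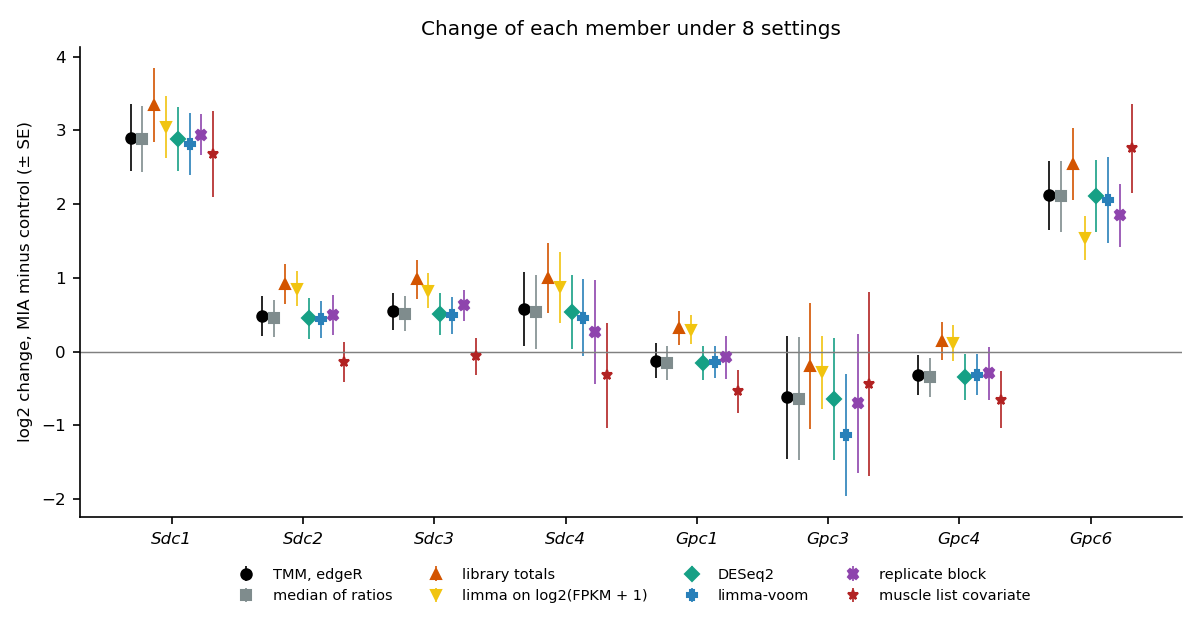
Log2 change of each member, MIA minus control, with its SE, under 8 settings of scaling, tool and covariate. Sdc1 stays between 2.68 and 3.34 and Gpc6 at 1.54 or above in these settings, whereas Sdc2, Sdc3 and Sdc4 go below 0 with the muscle covariate and Gpc1 and Gpc4 lie above 0 with library totals and with log2(FPKM + 1).

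Compared per length, the order of the members differed between the groups mainly in the place of Sdc1. In MIA libraries the mean log2 FPKM ordered them as Gpc1, Sdc2, Sdc1, Sdc4, Gpc4, Sdc3, Gpc6 and Gpc3, and in control libraries as Gpc1, Sdc2, Sdc4, Gpc4, Sdc1, Sdc3, Gpc3 and Gpc6. Sdc1 held place 3 in MIA at 59.9 ± 31.3 FPKM (SD, n = 4) and place 5 in control at 5.92 ± 2.34 FPKM (SD, n = 3). In MIA, Sdc1 and its neighbour Sdc4 did not differ beyond their spread, since Sdc1 was the higher of them in 1 of 4 libraries only and the mean log2 ratio was 0.12 ± 1.47 (SD, n = 4). In control, Sdc1 and Sdc3 were level, at a mean log2 ratio of 0.0032 ± 0.42 (SD, n = 3), with Sdc1 above in 2 of 3 libraries. Gpc1 was above Sdc2 in 4 of 4 MIA libraries and 3 of 3 control libraries, with a mean log2 ratio of 0.27 ± 0.19 in MIA (SD, n = 4) and 0.84 ± 0.18 in control (SD, n = 3). Gpc6 and Gpc3 stood last in both groups, in opposite orders. Gpc6 was above Gpc3 in 3 of 4 MIA libraries, and Gpc3 was above Gpc6 in 3 of 3 control libraries.

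The make-up of the syndecan family differed most in Sdc1, whose share of the summed syndecan FPKM was 21.7%, 24.8%, 52.0% and 17.6% in MIA 1 to 4, against 10.7%, 6.34% and 4.69% in control 2 to 4. In MIA 3 more than every other syndecan together came from Sdc1. The mean share was 29.0% ± 15.6 in MIA (SD, n = 4) and 7.24% ± 3.11 in control (SD, n = 3). The share of Sdc2 was 38.8% ± 6.68 in MIA and 52.4% ± 7.99 in control, that of Sdc4 26.9% ± 11.9 in MIA and 33.5% ± 10.7 in control, and that of Sdc3 5.31% ± 0.902 in MIA and 6.86% ± 1.07 in control, each with overlapping groups. The summed syndecan level was 208 ± 52.5 FPKM in MIA (SD, n = 4) and 82.3 ± 6.47 FPKM in control (SD, n = 3), and as TMM-scaled CPM 541 ± 147 in MIA and 288 ± 26.8 in control. These shares are descriptions and were not tested.

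Glypican transcripts were mostly Gpc1 in both groups. Its share of the summed FPKM of the 4 glypicans, which leaves out Gpc2, was 82.8% ± 2.75 in MIA (SD, n = 4) and 83.6% ± 0.505 in control (SD, n = 3). Gpc4 held 11.9% ± 2.41 in MIA and 13.5% ± 2.03 in control. Gpc6 held 6.05%, 1.50%, 5.29% and 2.86% in MIA 1 to 4, against 1.14%, 0.894% and 0.402% in control 2 to 4, without overlap. Gpc3 held 0.364%, 0.975%, 0.450% and 3.99% in MIA 1 to 4, against 3.65%, 1.97% and 0.823% in control 2 to 4. The summed glypican level was 115 ± 21.5 FPKM in MIA and 91.5 ± 7.47 FPKM in control, a direction that turns with the scaling, since the summed TMM-scaled level was 339 ± 69.6 CPM in MIA and 368 ± 53.0 CPM in control. The syndecan sum was 1.91, 1.97, 1.70 and 1.59 times the glypican sum in MIA 1 to 4, against 0.928, 0.984 and 0.796 times in control 2 to 4, a ratio that library scaling does not touch.

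**Figure D3:**
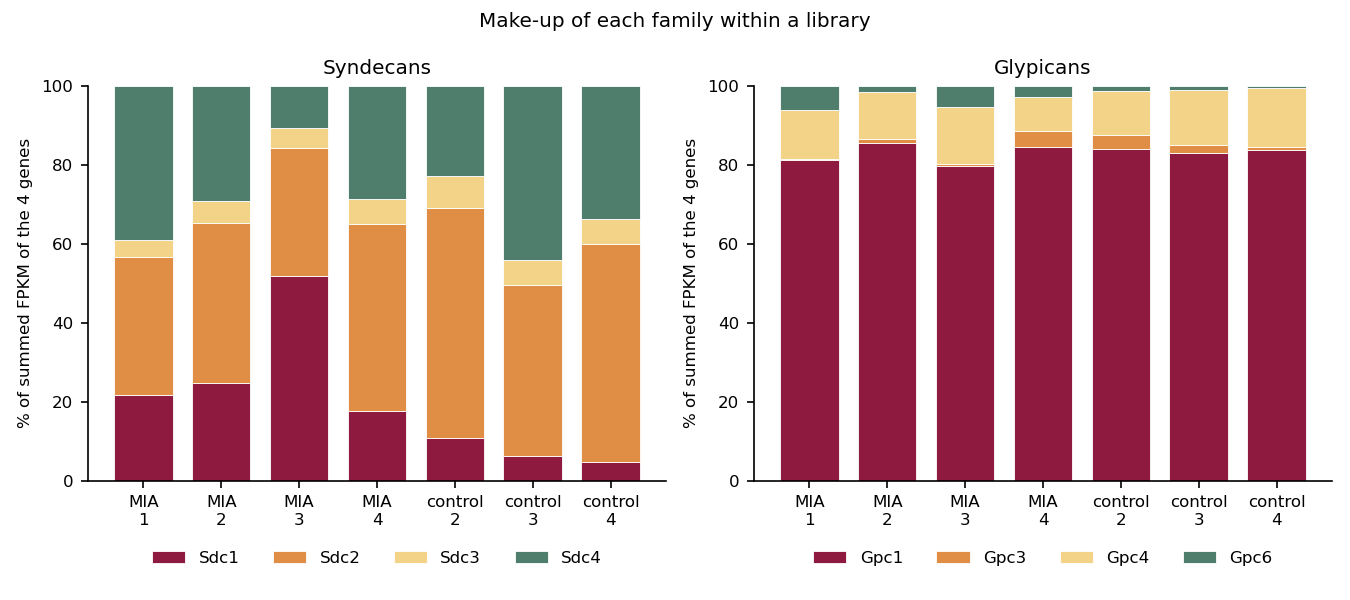
Share of each member in the summed FPKM of its family, for syndecans and for glypicans, in each of the 4 MIA and 3 control libraries. The Sdc1 part runs from 17.6% to 52.0% in MIA libraries and from 4.69% to 10.7% in control libraries, while Gpc1 fills 79.8% to 85.6% of the glypican bars in MIA libraries and 83.0% to 84.0% in control libraries.

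Ratios of paralogs within a library do not depend on how libraries are scaled, and 12 were compared, 6 within each family. The smallest two-sided p that the 35 assignments of 4 and 3 labels allow is 0.0286, and after Benjamini-Hochberg adjustment over the 12 pairs none was under 0.05. The 6 pairs that involve Sdc1 or Gpc6 had no overlap between the groups, and the other 6 overlapped. Pairs that share Sdc1 or share Gpc6 reuse the same values, so they are not separate results. How often ratios of other gene pairs separate was not computed, and of single tested genes 49.2% did not overlap in CPM. All 3 ratios with Sdc1 reached the smallest p (0.0286, adjusted 0.114, exact permutation test). The log2 ratio of Sdc1 to Sdc2 was −0.69, −0.71, 0.69 and −1.43 in MIA 1 to 4, against −2.45, −2.77 and −3.56 in control 2 to 4. The mean difference was 2.39, that is, the ratio was 5.25 times as high in MIA. For Sdc1 to Sdc3 the difference was 2.33 and for Sdc1 to Sdc4 it was 2.37.

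Among the other syndecans the ratio of Sdc2 to Sdc3 was the least variable. It was 3.08, 2.85, 2.64 and 2.91 on the log2 scale in MIA 1 to 4, against 2.85, 2.81 and 3.13 in control 2 to 4. Its mean was 2.87 ± 0.18 in MIA (SD, n = 4) and 2.93 ± 0.18 in control (SD, n = 3), a difference of −0.061 (p = 0.714, exact two-sided permutation test). The ratios with Sdc4 varied more: Sdc2 to Sdc4 averaged 0.66 ± 0.73 in MIA and 0.68 ± 0.69 in control, and Sdc3 to Sdc4 averaged −2.21 ± 0.90 in MIA and −2.25 ± 0.69 in control. A p above the threshold in this design does not show that these ratios were equal.

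In the glypicans, the log2 ratio of Gpc1 to Gpc6 was 3.75, 5.83, 3.91 and 4.88 in MIA 1 to 4, against 6.20, 6.54 and 7.70 in control 2 to 4, a difference of −2.22. For Gpc4 to Gpc6 the difference was −2.40 and for Gpc3 to Gpc6 it was −3.22, each with p = 0.0571 (adjusted 0.114, exact two-sided permutation test), as for Gpc1 to Gpc6. The ratio of Gpc1 to Gpc4, the 2 most abundant glypicans, averaged 2.83 ± 0.35 in MIA (SD, n = 4) and 2.65 ± 0.23 in control (SD, n = 3), and the groups overlapped (p = 0.543, exact two-sided permutation test).

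**Figure D4:**
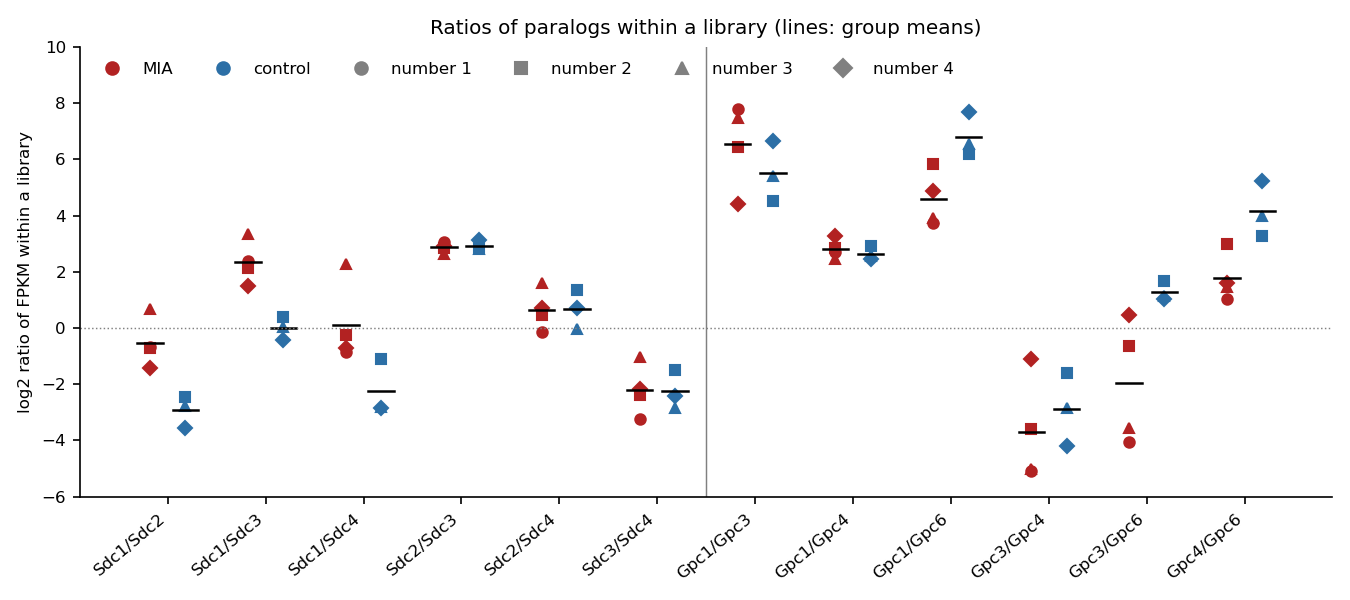
Log2 ratio of FPKM between 2 members of the same family in each library, for 6 syndecan pairs (left of the line) and 6 glypican pairs (right), with group means as black lines. MIA and control points separate in the 6 pairs that involve Sdc1 or Gpc6, with differences of 2.33 to 2.39 for Sdc1 and −3.22 to −2.22 for Gpc6, and overlap in the other 6. Pairs that share a gene are not separate results.

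The pattern of each member over the 7 libraries was compared with those of the others by distance. The distance used was the root mean square difference of log2 CPM after each gene was centred on its mean, so that 0 means the same pattern. Among the 8 members, Sdc2 and Sdc3 were closest to each other (0.152), followed by Gpc1 and Gpc4 (0.272). Sdc4 was closest to Sdc2 (0.604) and Gpc3 to Gpc1 (1.17), so 6 of the 8 had their nearest member in their own family. Sdc1 and Gpc6 were the exceptions and stood closest to each other (0.756). The median distance to 11424 other genes was 0.572 for Sdc2, 0.513 for Gpc1, 0.888 for Sdc4 and 1.28 for Gpc3. Gpc3 was thus hardly closer to Gpc1 than to a typical gene, and it lay nearly as close to Sdc3 and Sdc2 (both 1.23). The distance spans both groups and so includes the difference between MIA and control. Among 11424 other genes, the closest to Sdc1 were Fabp5, a fatty acid-binding protein (0.134), and Igsf10 (0.255). Fabp5 stood at 63.0, 94.8, 104 and 34.8 CPM in MIA 1 to 4, against 15.1, 9.95 and 6.72 CPM in control 2 to 4, the same order of libraries as for Sdc1. Genes named here were picked for closeness over these same libraries, so a like pattern follows from the choice. The closest to Gpc6 were Csrp2 (0.221) and Fam167b (0.277), and to Sdc4 Ctgf, which encodes the matrix protein CCN2 (0.309), and Tiam2 (0.323). Ctgf, picked in the same way, was lowest in MIA 3, at 367 CPM, as Sdc4 was. Gpc3 was closest to Pcp4l1 (0.291) and to the smooth muscle myosin Myh11 (0.365). For Sdc2 the closest were Ttll5 and Lrrc8d, for Sdc3 Clcn7 and Stk39, for Gpc1 Med19 and Tmem175, and for Gpc4 Slc25a40 and Tmem256, at distances of 0.0740 to 0.168.

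Syndecan genes are known to lie near genes of the matrilins, adaptor proteins of the extracellular matrix, and these neighbours were read by position after the member values had been seen. In RefSeq on GRCr8, used only for gene order, 1 named coding gene lies between Sdc1 and Matn3, Sdc3 and Matn1, and Sdc4 and Matn4, and 5 lie between Sdc2 and Matn2. Matn2 averaged 138 ± 50.7 CPM in MIA (SD, n = 4) and 19.9 ± 4.64 CPM in control (SD, n = 3), with a log2 change of 2.79 ± 0.34 (SE; edgeR adjusted p = 0.00135). Matn4 averaged 34.4 ± 28.7 CPM in MIA and 3.87 ± 2.27 CPM in control (edgeR adjusted p = 0.00913), a call that ended with the muscle covariate (log2 change 1.58 ± 0.57 SE, 0.0925). Matn3 had 89, 191, 70 and 56 counts in MIA 1 to 4, against 2, 0 and 1 counts in control 2 to 4 (edgeR adjusted p = 0.00188). Matn1 had 4 counts in MIA 2 and was listed at 0 elsewhere, so it was not tested. Matn3 is also one of the 9 chondrocyte genes, whose summed level was 1421, 3783, 252 and 1834 CPM in MIA 1 to 4, against 519, 440.5 and 374 CPM in control 2 to 4. In that list 3 of 9 genes were called higher, where 21.3% of all tested genes were. Among them was the cartilage proteoglycan Acan at 295 ± 165 CPM in MIA (SD, n = 4) and 1.37 ± 1.06 CPM in control (SD, n = 3). The part of cartilage transcripts in the matrilin levels was not tested. The genes directly beside Sdc1, Pum2 and Laptm4a, were not called, with log2 changes of 0.24 and 0.32. Of the other direct neighbours 3 were higher and 1 lower. Ptdss1, beside Sdc2, rose by 1.14 ± 0.16 (SE; edgeR adjusted p = 0.00185) and kept its call in every alternative setting. Laptm5, beside Sdc3, was higher at 2.40 ± 0.47 (SE; edgeR adjusted p = 0.00567), and not called with the muscle covariate (1.76 ± 0.57 SE, 0.0681). Beside Sdc4, Rbpjl was higher at 2.41 ± 0.79 (SE; edgeR adjusted p = 0.0394), a call that ended in 6 alternative settings, and Sys1 was lower at −0.90 ± 0.19 (SE; 0.00757), a call that ended in 4, library totals among them.

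Genes around the members were read from 10 lists. Most lists hold genes that build, sulfate, remodel, release, carry or bind heparan sulfate. The others are adaptors and signalling partners of syndecans and the hedgehog pathway. The release list also holds the protease inhibitors Timp1 and Timp3. Of 103 listed genes 98 were matched and 87 tested. In MIA 36 were higher (41.4%, against 21.3% of all tested genes) and 4 lower (4.6%, against 19.6%). The lists were chosen with earlier results of these data known, so these shares are descriptions, and no list was tested as a set. The median log2 change of the tested genes of a list ran from 0.29 for the hedgehog pathway to 1.94 for shedding and release, against 0.072 over all genes. The count of higher genes was 22 without control 4 and 19 under the muscle covariate, which also left 2 lower. Of the 40 called genes, 16 kept their call in every alternative setting: Ext1, Adam17, Mmp2, Mmp3, Mmp14, Gpld1, Timp1, Col18a1, Cd44, Fgf1, Hgf, Mdk, Ptn, Tnc, Thbs1 and Smo.

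Of the enzymes that start the chain on a core protein, 2 of 6 were higher and none lower. Xylt1, which adds the first xylose, averaged 4.38 ± 2.84 CPM in MIA (SD, n = 4) and 0.572 ± 0.442 CPM in control (SD, n = 3), with a log2 change of 2.93 ± 0.76 (SE; edgeR adjusted p = 0.0162). The linkage galactosyltransferase B3galt6 rose by 1.07 ± 0.26 (SE; edgeR adjusted p = 0.0139). The calls of both ended in 4 alternative settings each, among them without control 3 (edgeR adjusted p = 0.0669 for Xylt1 and 0.0579 for B3galt6) and the muscle covariate (0.0711 and 0.0973), with log2 changes of 3.03 ± 0.99 and 1.1 ± 0.41 (SE) under the covariate. Of the 5 polymerisation genes, 3 were higher and 1 lower. The copolymerase Ext1 averaged 80.3 ± 11.8 CPM in MIA and 29.5 ± 3.08 CPM in control (log2 change 1.44 ± 0.18 SE, edgeR adjusted p = 0.0013). Ext2, its partner, named after its value was seen, rose by 0.86 ± 0.25 (SE; edgeR adjusted p = 0.0249), and Extl2 rose by 1.09 ± 0.26 (0.0119). Extl1 was lower, at 3.22 ± 2.29 CPM in MIA and 29.7 ± 15.5 CPM in control (log2 change −3.19 ± 0.65 SE, edgeR adjusted p = 0.00654). With the muscle covariate Extl2 kept its size and was not called (1.27 ± 0.39 SE, edgeR adjusted p = 0.0587), Ext2 was at 0.68 ± 0.37 (SE, 0.226), and Extl1 shrank to −1.48 ± 0.64 (SE, 0.14).

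Among the epimerase and the sulfotransferases, 1 of 8 tested genes was higher, Hs2st1, which sulfates the uronic acid, with a log2 change of 0.90 ± 0.24 (SE; edgeR adjusted p = 0.0183). The N-sulfating enzymes Ndst1 and Ndst2 had log2 changes of 0.99 ± 0.38 and 2.34 ± 0.89 (SE) and were not called (edgeR adjusted p = 0.0653 and 0.0654). With single libraries left out the count ran from 0 to 2 of the list. The Hs2st1 call ended without control 3 (0.0821) and without control 4 (0.0711), and with the muscle covariate, where its log2 change was no smaller but its SE wider (1.08 ± 0.35 SE, edgeR adjusted p = 0.0692). All 4 genes that supply the sulfate donor were higher. These were the donor synthases Papss1 (log2 change 1.12) and Papss2 (1.17, named after its value was seen) and the Golgi donor transporters Slc35b2 (1.11) and Slc35b3 (0.74). The Papss2 call was near the threshold (edgeR adjusted p = 0.0478) and ended in 9 alternative settings. With the muscle covariate none of the 4 was called: Papss2 dropped to 0.067 ± 0.36 (SE), whereas Slc35b2 was at 0.97 ± 0.28 (SE, edgeR adjusted p = 0.0517), Papss1 at 0.85 ± 0.30 (SE) and Slc35b3 at 0.61 ± 0.29 (SE).

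Enzymes that trim or cut the chain, and those that release the core protein, were among the higher genes. Heparanase, Hpse, averaged 12.4 ± 3.63 CPM in MIA (SD, n = 4) and 4.35 ± 0.422 CPM in control (SD, n = 3), with a log2 change of 1.50 ± 0.30 (SE; edgeR adjusted p = 0.00582). The extracellular 6-O-sulfatase Sulf2 averaged 191 ± 72.2 CPM in MIA and 70.7 ± 20.6 CPM in control (log2 change 1.43 ± 0.35 SE, edgeR adjusted p = 0.013), and its paralog Sulf1 had a log2 change of 0.28 ± 0.20 (SE) and was not called. With the muscle covariate neither was called, with Hpse at 1.33 ± 0.44 (SE, edgeR adjusted p = 0.0719) and Sulf2 at 0.90 ± 0.42 (SE, 0.169). Of 10 tested shedding and release genes, 7 were higher and 1 lower. The membrane protease Mmp14, which can cleave syndecan-1, averaged 916 ± 192 CPM in MIA and 84.9 ± 9.75 CPM in control (log2 change 3.43 ± 0.29 SE, edgeR adjusted p = 0.000735). Mmp3 averaged 319 ± 45.9 CPM in MIA and 36.7 ± 5.53 CPM in control. Timp1, an inhibitor of secreted matrix metalloproteases, averaged 282 ± 29.6 CPM in MIA and 46.4 ± 13.2 CPM in control. The gene that was lower is Gpld1, a phospholipase that cuts glycosylphosphatidylinositol anchors, named after its value was seen, at 4.44 ± 0.721 CPM in MIA and 16.3 ± 4.61 CPM in control (log2 change −1.88 ± 0.26 SE, edgeR adjusted p = 0.00185).

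Of 10 adaptors and signalling partners of syndecans, 3 were higher and none lower. The Rac exchange factor Tiam1 averaged 7.90 ± 3.25 CPM in MIA (SD, n = 4) and 1.41 ± 0.475 CPM in control (SD, n = 3), with an edgeR adjusted p of 0.00384. Ezrin, Ezr, which ties membrane proteins to actin, averaged 58.0 ± 10.2 CPM in MIA and 22.6 ± 6.0 CPM in control. Syntenin-1, Sdcbp, the PDZ protein that binds syndecan tails, had a log2 change of 0.78 ± 0.26 (SE; edgeR adjusted p = 0.0435), and this call ended in 7 of the alternative settings. With the muscle covariate none of the 3 was called, with Tiam1 at 1.63 ± 0.48 (SE, edgeR adjusted p = 0.0543), Ezr at 0.98 ± 0.30 (SE, 0.0593) and Sdcbp at 0.53 ± 0.35 (SE, 0.314). Prkca, Rhoa and Rac1, partners named after their values were seen, had log2 changes of 0.049, 0.49 and 0.19 and were not called.

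Among 8 tested genes of other proteins that can carry heparan sulfate, 4 were higher and none lower. Cd44 averaged 313 ± 83.7 CPM in MIA (SD, n = 4) and 70.4 ± 17.4 CPM in control (SD, n = 3), with a log2 change of 2.15 ± 0.30 (SE). Col18a1, a basement membrane collagen, averaged 822 ± 190 CPM in MIA and 189 ± 70.9 CPM in control. Nrp1, a receptor of VEGF and semaphorins, rose by 1.08 ± 0.21 (SE), and was at 0.84 ± 0.28 (SE) and not called with the muscle covariate (edgeR adjusted p = 0.0751). The table lists perlecan, Hspg2, under the name AABR07073181.1, and this gene was near the threshold (log2 change 1.34 ± 0.46 SE, edgeR adjusted p = 0.0467), with the call lost in 9 alternative settings. A further glypican, Gpc2, averaged 3.62 ± 0.929 CPM in MIA and 2.87 ± 1.1 CPM in control and was not called, and Gpc5 was not analysed here.

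Of 23 ligands that bind heparan sulfate, 7 were higher and 2 lower. Tenascin-C, Tnc, a matrix glycoprotein, averaged 936 ± 273 CPM in MIA (SD, n = 4) and 75.8 ± 28.7 CPM in control (SD, n = 3), with a log2 change of 3.63 ± 0.42 (SE; edgeR adjusted p = 0.00113). Thrombospondin-1, Thbs1, averaged 285 ± 117 CPM in MIA and 44.9 ± 7.30 CPM in control, and midkine, Mdk, a growth factor known to bind syndecans, 28.4 ± 7.95 CPM in MIA and 5.14 ± 2.02 CPM in control. The 2 lower ligands, named after their values were seen, were Fgf1 and Vegfa. Fgf1 averaged 4.36 ± 2.49 CPM in MIA and 44.3 ± 22.4 CPM in control (log2 change −3.34 ± 0.57 SE), and Vegfa 144 ± 76.5 CPM in MIA and 545 ± 154 CPM in control (−1.92 ± 0.44 SE). MIA libraries also held the lower muscle share, and its part in Fgf1 and Vegfa cannot be told apart from that of MIA. Fgf1 kept its call in every alternative setting, the muscle covariate among them. With that covariate Vegfa was at −1.56 ± 0.69 (SE) and not called (edgeR adjusted p = 0.151). In the hedgehog pathway, which glypicans modulate, 3 of 10 tested genes were higher and none lower. These were the transducer Smo (log2 change 1.36 ± 0.19 SE, edgeR adjusted p = 0.00185), the transcription factor Gli3 (2.30 ± 0.57 SE, 0.0142) and the co-receptor Cdon (1.01 ± 0.25 SE, 0.0148), and the calls of Gli3 and Cdon ended without control 2 or control 4, that of Cdon also with the replicate block and with the muscle covariate (0.79 ± 0.38 SE, 0.176). The pathway's target genes Ptch1 and Gli1, named after their values were seen, had log2 changes of −0.56 ± 0.22 and −0.68 ± 0.61 (SE) and were not called.

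**Figure D5:**
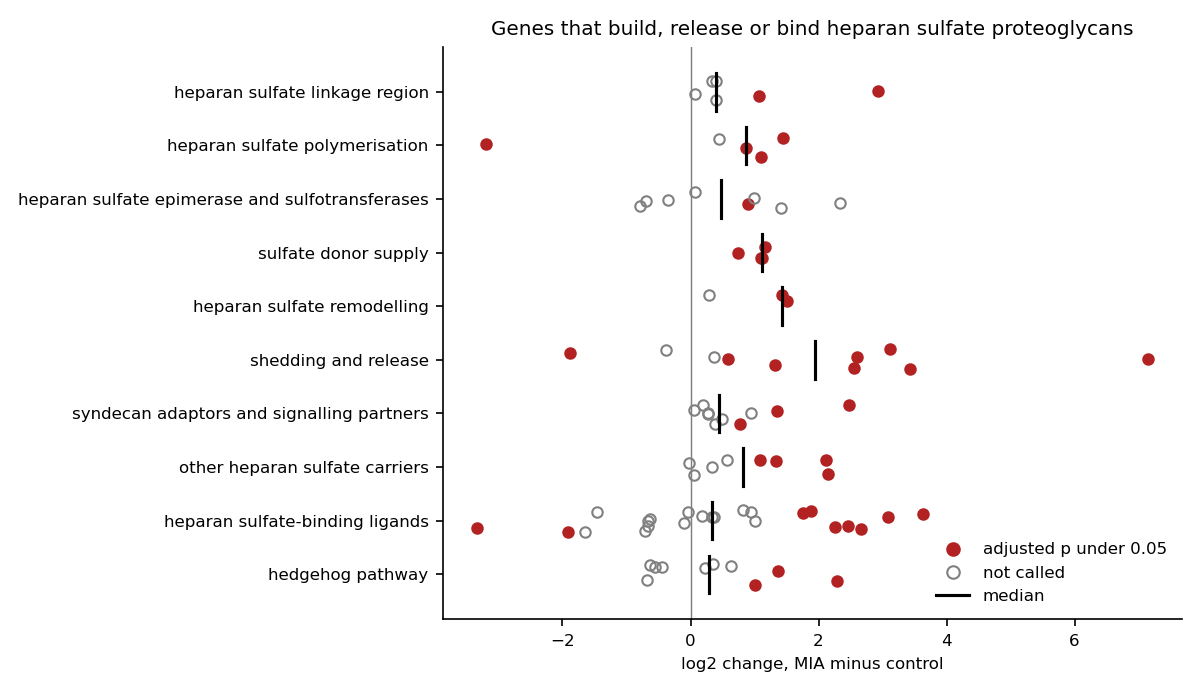
Log2 change, MIA minus control, of each tested gene in the 10 function lists, which include syndecan partners and the hedgehog pathway. Called genes are filled, list medians are black lines and points are spread vertically only to part them. The 4 sulfate donor genes, 7 of 10 shedding and release genes, with the inhibitor Timp1 among them, and 1 of 8 epimerase and sulfotransferase genes are filled above 0; differences between lists were not tested.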

How the data were processed

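Libraries from 7 rats, 4 MIA and 3 control, were made from 1.5 µg of RNA each with the NEBNext Ultra kit, per the labels. Per the submitters' processing notes, HISAT2, HTSeq 0.11.2, DESeq2 1.26.0 and the build Rnor_6.0 were used, with no role stated. The deposited table gives whole-number counts per gene and library, per the file headers. It also gives deposited FPKM values, which equal the count over gene length and column total with 1 length per gene (tolerance 1e-09). For strand setting, annotation release and trimming, the sources used here state nothing. Total counts ran from 13870822 to 16261089.

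Counts were tested in R 4.3.3 with edgeR 4.0.16 (filterByExpr, TMM factors of 1.06 to 1.23 in MIA and 0.801 to 0.902 in control libraries, quasi-likelihood F test, Benjamini-Hochberg over 14054 genes, called under 0.05). The SE of a log2 change is its absolute size over the square root of F. The common biological coefficient of variation was 36.7%. The scripts were tested on simulated data. Alternatives used other scalings, DESeq2 1.42.0, limma 3.58.1, other filters, a replicate block, a muscle covariate and single libraries left out. Paralog ratios were compared by exact permutation with scipy 1.17.1.

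The members and lists were chosen with earlier results of these data known. Of 229 listed genes, the table held 214 under the same symbol and 2 under a synonym, and 13 were not matched. Named genes are all members, the 3 tested genes of each function list with the smallest p (all but Xylt2 are given), the 2 genes closest to each member in centred log2 CPM (mean FPKM of at least 1, proper symbol), and Prg4, Thy1 and Col1a1. The 2 tested genes of each cell type list with the highest mean FPKM were also planned. Most of these were not named, since the cell type lists that are given appear mainly as sums. Other genes were named after their values were seen, including neighbours and markers such as Tnfrsf17, Mzb1, Krt5, Krt14 and Acan. Rat promoters are from RefSeq on GRCr8, another build than that of the counts, and were used for sequence and gene order.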

Additional observations from a re-analysis of the deposited data

Results flagged for a closer look

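The share of Gpc3 in the summed glypican FPKM was 3.99% in MIA 4, against 0.364%, 0.975% and 0.450% in MIA 1, 2 and 3, so that MIA 4 stood apart from the rest of its group. Its gap to the nearest library was 0.831 of the range of the group, just above Dixon's limit for 4 values. The control libraries were at 3.65%, 1.97% and 0.823%, and MIA 4 lay close to the highest of these. It was the only one of 28 sets of values so marked, and chance alone marks about 1 in 20.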

How the results depend on the processing

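Sdc1 and Gpc6 kept their direction and call in all 18 alternatives. With single libraries left out, the log2 change of Sdc1 ran from 2.58 to 3.16 (edgeR adjusted p 0.00258 to 0.0162) and that of Gpc6 from 1.84 to 2.33 (0.00467 to 0.0405). With library totals, limma on log2(FPKM + 1) and limma on log2(FPKM + 0.1), 4 members were higher: Sdc2 had 0.92, 0.86 and 0.87 and Sdc3 had 0.98, 0.83 and 0.92, while Gpc1 turned to 0.32, 0.30 and 0.30 and Gpc4 to 0.14, 0.12 and 0.12. These 3 settings moved the median of all genes to 0.51, 0.36 and 0.47, and called 5259, 4959 and 5140 genes higher and 1477, 1608 and 1558 lower. The muscle covariate gave Sdc2 −0.14, Sdc3 −0.060 and Sdc4 −0.32, called 1263 genes higher and 1006 lower, and left 19 genes of the function lists higher and 2 lower. Beyond the altered scaling or the added covariate, the cause was not tested. With single libraries left out, 1642 to 2937 genes were higher and 1757 to 2787 lower, and of the function lists 22 to 37 were higher, with fewer samples in each fit. The ratio differences near 0 changed sign: with FPKM + 1, Sdc2 to Sdc3 was 0.029 and Sdc3 to Sdc4 −0.046, and with single libraries left out Sdc2 to Sdc3 ran from −0.13 to 0.039, Sdc2 to Sdc4 from −0.38 to 0.31 and Sdc3 to Sdc4 from −0.35 to 0.41. No called gene of the function lists changed direction, but 24 of the 40 lost their call in at least 1 alternative.

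The rat numbers were not taken to pair the libraries, since deviations from the group means correlated by more than 0.1 in only 1 of 3 same-numbered pairs (0.245, 0.0967 and 0.0425 for numbers 2, 3 and 4). With a replicate block the log2 change of Sdc1 was 2.94 (edgeR adjusted p = 0.00808) and that of Gpc6 was 1.85 (0.0296), and no member gained or lost a call. MIA 3 correlated better with control 4 than with control 3.

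The lowest counts behind a member were those of Gpc3, with 10 to 131 in a library, and Gpc6, with 14 to 35 in the controls. Groups of 4 and 3 limit every test, and the exact test of the ratios cannot pass adjustment over 12 pairs unless several pairs reach its smallest p.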
